A study of Mus musculus with 10 samples.

Results

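The genes described here are 35 genes of DNA replication, chosen by name as the rows of the deposited count table that carry their symbols, out of 25178 genes in the table. They encode the proteins that license origins, unwind and copy DNA, supply nucleotides and rebuild chromatin in S phase. All 35 passed the filter on low counts, which kept 14674 genes in all. RNA was taken at steady state, with no treatment named, from 5 females and 5 males of the inbred mouse strain C57/BL6. Marrow from 1 hindlimb was depleted of cells with mature lineage markers on magnetic beads, and total RNA of the remaining stem and progenitor preparation was sequenced in bulk, 1 library per mouse. The series asks how blood formation differs between the sexes. The sources used here give neither the ages of the mice nor the antibodies of the depletion nor the purity of the preparation.

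Replication starts when the origin recognition complex, Cdc6 and Cdt1 load the ring-shaped MCM helicase onto DNA before S phase. Cdc45 and the GINS complex then join the ring and turn it into the active helicase, behind which primase and the replicative polymerases copy the strands. Transcripts of most of these genes are under the control of E2F factors and are made mainly as cells enter S phase, so in bulk marrow their level is commonly read as a mark of cycling progenitors. In bulk RNA, fewer cycling cells and less RNA per cycling cell cannot be told apart.

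Library totals lay between 20754101 and 24759687 counts, and each of the 35 genes had at least 120 counts in each library. Xist and the Y-linked gene Ddx3y placed 5 of 5 females and 5 of 5 males as labelled. All 12 stem and progenitor markers were detected, among them the stem cell factor receptor Kit at 280 ± 43.3 CPM (the count scaled to a library of fixed size, after TMM scaling) in females and 249 ± 59.4 CPM in the males (SD, n = 5 each). Of 6 T and NK cell markers 3 passed the filter, and their summed level was 29.3 to 46.7 CPM in females, 76.9 and 66.9 CPM in male replicates 1 and 2 and 44.2 to 49 CPM in the other 3 males. Most of it was the granule gene Nkg7, at 37.4 ± 6.14 CPM in the females and 54.8 ± 13.8 in the males (SD, n = 5 each), while the T cell receptor chain gene Cd3d was at 0.586 and 0.669 CPM. The summed level of the 8 megakaryocyte markers that passed the filter was 1427 to 1869 CPM in females. It was 1119 and 1313 CPM in male replicates 1 and 2 and 1113 to 1297 CPM in the other 3 males. All 8 had a positive fold change of female against male. In erythroid and mature neutrophil markers, male replicates 1 and 2 again stood apart. The summed level of 14 erythroid markers was 52826 and 33964 CPM there, against 16043 to 28328 CPM in the other 3 males and 8910 to 13981 CPM in females. In male 1 most of it was hemoglobin, Hba-a1 (13821 CPM), Hba-a2 (13165), Hbb-b1 (11298) and Hbb-bt (7387). Of the 14 markers 10 had a negative fold change of female against male and 4 a positive one. Ermap, among the 4, was at 484 and 446 CPM in males 1 and 2, against 598 to 798 CPM in females. The summed level of 10 mature neutrophil markers was 8729 and 2698 CPM in males 1 and 2, against 211 to 1363 CPM in the other 3 males and 260 to 967 CPM in females. The comparison of the sexes is therefore also given without male replicates 1 and 2.

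A share of the promoters of these genes carried words of the E2F site. The genes were not chosen by promoter sequence, but most are known to be under E2F control, as given above, so such words are no independent feature. RefSeq windows on GRCm38.p6, from 250 bases before to 50 bases after the annotated start, were found for 30 of the 35 genes (35 windows). Mcm4, Gins1, Gins2, Gins4 and Pole are named only. E2F sites were searched as the words TTTGGCGC, TTTCCCGC, TTTCGCGC and TTTGCCGC on both strands. At least 1 word was found in 12 of the 35 windows (34.3%), against 744 of all 32851 windows (2.26%). The windows of all genes were not matched to these for base content or expression. The 12 windows belong to Orc1, Cdc6, Cdt1, Mcm3, Mcm5, Mcm6, Mcm7, Gins3, Pold1, Rfc3, Lig1 and Uhrf1. The following stretches show words that lie before the start, 5′ to 3′ on the strand of the gene, with the E2F word in capitals. They are printed to show the 8 promoters with such a word before the start, and stretches that overlap an annotated GENCODE exon are kept to 30 bases or fewer.
Mcm5 (chr8:75109336-75109387, plus strand): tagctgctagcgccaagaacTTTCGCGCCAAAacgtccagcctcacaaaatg
Mcm6 (chr1:128359725-128359835, minus strand): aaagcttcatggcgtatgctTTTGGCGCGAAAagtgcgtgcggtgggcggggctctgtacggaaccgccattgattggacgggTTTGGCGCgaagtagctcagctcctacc
Mcm7 (chr5:138172030-138172059, minus strand): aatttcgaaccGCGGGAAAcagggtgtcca
Cdc6 (chr11:98907993-98908040, plus strand): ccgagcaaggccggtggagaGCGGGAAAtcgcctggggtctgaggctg
Orc1 (chr4:108579416-108579445, plus strand): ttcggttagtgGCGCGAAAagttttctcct
Gins3 (chr8:95633507-95633536, plus strand): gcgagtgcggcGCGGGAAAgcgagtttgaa
Rfc3 (chr5:151651209-151651229, minus strand): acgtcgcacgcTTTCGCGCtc
Uhrf1 (chr17:56304108-56304155, plus strand): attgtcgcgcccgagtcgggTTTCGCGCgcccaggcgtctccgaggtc

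In Mcm5 and in the upstream place of Mcm6, words on opposite strands overlap, so that each capital run holds 2 words. Mcm6 had 3 words, the most of the 35 windows. The downstream word of Mcm7 shares a base with a CCAAT box, and no other E2F word overlapped another kind of word. The words of Cdt1, Mcm3, Pold1 and Lig1 lay after the start. A shorter element, the CCAAT box, was found in 21 of the 35 windows (60%) against 37.4% of all windows, and the GC box GGGCGG in 26 (74.3%) against 35.7%. The CHR element TTTGAA, known from promoters of mitotic genes, was found in 4 (11.4%) against 17.9%. Of the 12 genes with an E2F word 10 had a positive log2 fold change of female against male (median 0.08), and of the 18 with a window but no word 7 had (median -0.09). Without male replicates 1 and 2 these counts were 5 of 12 (median -0.02) and 3 of 18 (median -0.03). No difference between these sets was tested, and a match of letters is a description, not a bound site.

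**Figure D1:**
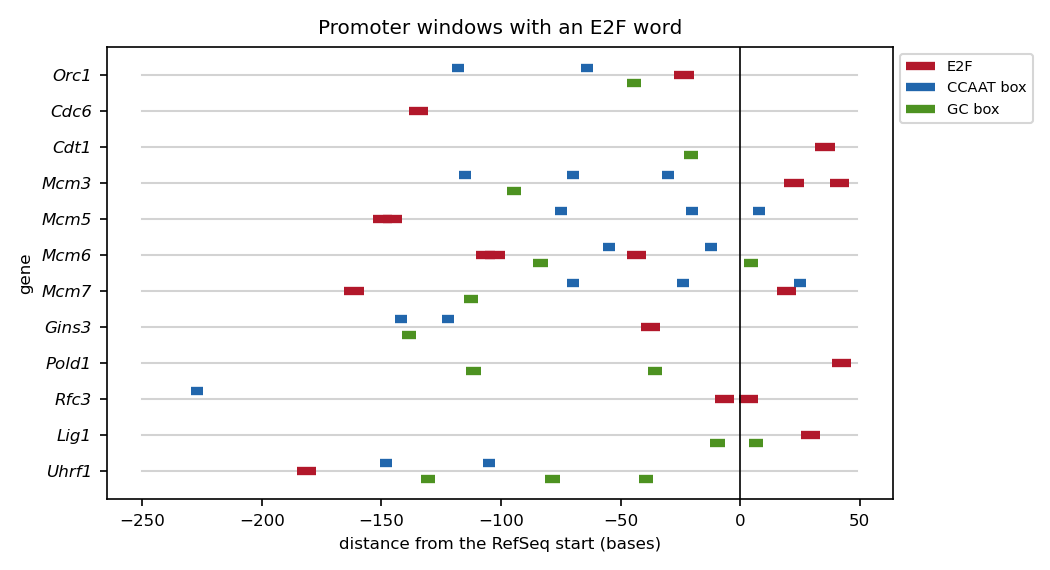
Places of E2F words (red), CCAAT boxes (blue) and GC boxes (green) on the 12 promoter windows with an E2F word, in bases from the RefSeq start (vertical line at 0). Mcm6 carries 3 E2F words, 2 of which overlap, and the words of Cdt1, Mcm3, Pold1 and Lig1 lie after the start.

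Levels between genes are compared here as CPM per kilobase of the transcript with the longest coding sequence, as the mean over the 10 mice. Pcna, the sliding clamp that holds polymerases on DNA, was the most abundant of the 35 at 445 ± 64.2 CPM per kilobase (SD, n = 10). Gins3, a subunit of GINS, was the least abundant at 8.21 ± 0.663. The 6 subunits of the MCM ring, which the complex holds in equal number, spread over 2.86-fold. Mcm7 was at 268 ± 22.2, Mcm5 at 211 ± 21.6, Mcm2 at 186 ± 33.2, Mcm3 at 173 ± 16.9, Mcm6 at 161 ± 11.4 and Mcm4 at 93.8 ± 8 CPM per kilobase (SD, n = 10). Mcm7 lay above Mcm5, Mcm5 above Mcm2 and Mcm6 above Mcm4 in 10 of 10 mice. Mcm2 lay above Mcm3 in 8 mice and Mcm3 above Mcm6 in 9, and the ranges of these 3 genes overlapped.

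Among the licensing factors Cdt1, which brings the MCM ring to the origin, was at 104 CPM per kilobase, the ATPase Cdc6 at 39.2 and Orc1, the largest subunit of the origin recognition complex, at 10.6, in this order in 10 of 10 mice. In GINS, Gins4 (53.5) and Gins1 (44.2) lay above Gins2 (15.9) and Gins3 (8.21), and Cdc45 (40.8) could not be placed against Gins1, which was the higher of the pair in 5 of 10 mice. Pold1, the catalytic subunit of the lagging strand polymerase, was at 73.9 and Pole, that of the leading strand polymerase, at 16. Between them lay Pola2 (45.5), a subunit of the priming polymerase, and Prim1 (27.8), the small primase subunit. The clamp loader subunits Rfc4 and Rfc3 were at 58.2 and 20.2, and the single-strand binding subunits Rpa2 and Rpa1 at 86.6 and 58.1 CPM per kilobase. Lig1, the ligase that joins Okazaki fragments, was at 116 and Fen1, the flap nuclease that trims them, at 13.3. Fen1 stood at 8.7 in male 1, 2.63 in male 2 and at most 16.9 in any mouse, and its exons overlap other genes, as given below.

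Nucleotide synthesis genes were led by Dut, which removes dUTP, at 192 CPM per kilobase. Rrm2 and Rrm1, the subunits of ribonucleotide reductase, were at 167 and 144, the thymidine kinase Tk1 at 72.5 and the thymidylate synthase Tyms at 28.4. Dut exceeded Rrm2 in 6 of 10 mice, so these 2 were not separated. Uhrf1, which guides maintenance DNA methylation, was at 90.4, Slbp, which binds the stem-loop of histone mRNA, at 62.1, and the chromatin assembly subunits Chaf1b and Chaf1a at 36.1 and 17 CPM per kilobase. The order depends on the length used. With the union of all exons of a gene, a scaling chosen after seeing the data, Mcm2 was at 93.4 beside Mcm4 at 93.8, and Mcm7 and Mcm5 were at 180 and 179.

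**Figure D2:**
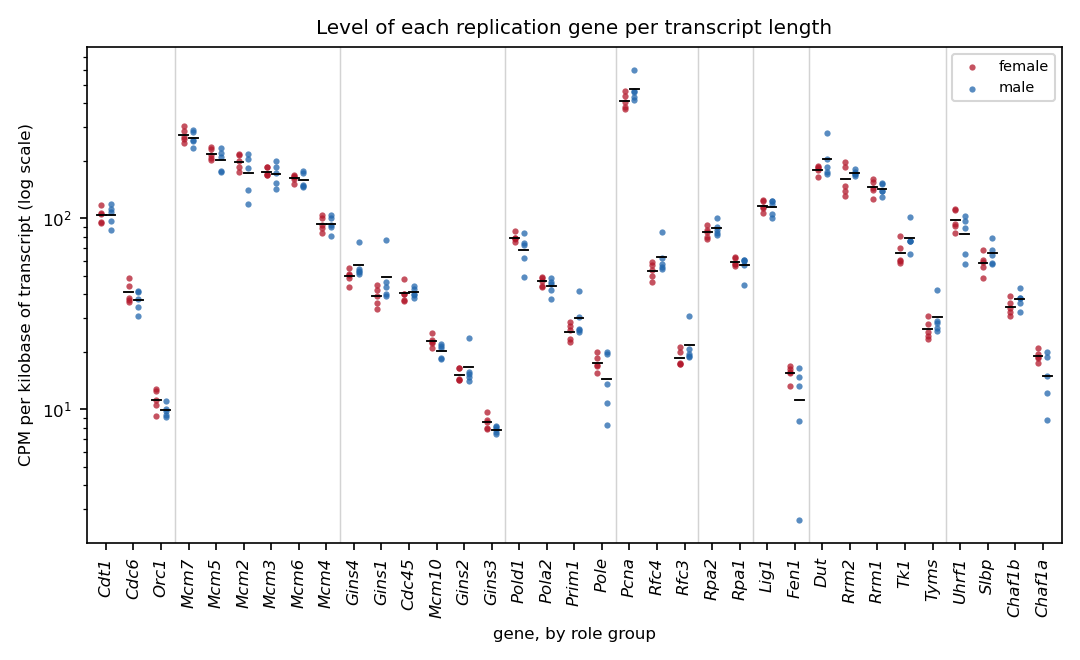
Level of each of the 35 genes in CPM per kilobase of transcript (log axis), 1 point per mouse, females red and males blue, with a black line at the mean of each sex. Pcna is highest (445 over the 10 mice) and Gins3 lowest (8.21), and the lowest point of all is Fen1 in male replicate 2 at 2.63.

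No replication gene was called different between females and males. In the fit across all genes 0 of the 35 passed (edgeR, adjusted p under 0.05), where 0.0545% of all genes tested did, and their adjusted p-values ran from 0.506 to 0.988. At an unadjusted p under 0.05 the count was also 0 of 35, against 9.17% of all genes. DESeq2 called 0 of 35 by adjusted p, against 0.361% of all genes. At an unadjusted p under 0.05 DESeq2 had 0 of 35, where 1602 of 14674 genes passed. In none of the 35 did all females lie above all males (1.06% of all genes) or all below them (0.865%). Positive log2 fold changes were seen in 19 genes and negative ones in 16, with a median of 0.02 beside -0.01 over all genes tested. Without male replicates 1 and 2 the split was 8 positive and 27 negative, with a median of -0.03 beside -0.00 over all genes tested. The summed level of the 35 genes was 9554 ± 693 CPM in the females and 9430 ± 616 in the males (SD, n = 5 each), a ratio of 1.01. As a share of all counts it was 0.979% ± 0.052 and 0.92% ± 0.099.

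The 95% interval of the log2 fold change lay within a 1.5-fold change either way for 30 of the 35 and within a 2-fold change for 34. These intervals are for single genes and are not adjusted for their number. The 5 genes with a wider interval were Gins1 (-0.72 to 0.06), Pole (-0.18 to 0.74), Chaf1a (-0.06 to 0.75), Uhrf1 (-0.10 to 0.60) and Fen1 (-0.28 to 1.23). For Fen1 alone the interval reached past a 2-fold change.

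**Figure D3:**
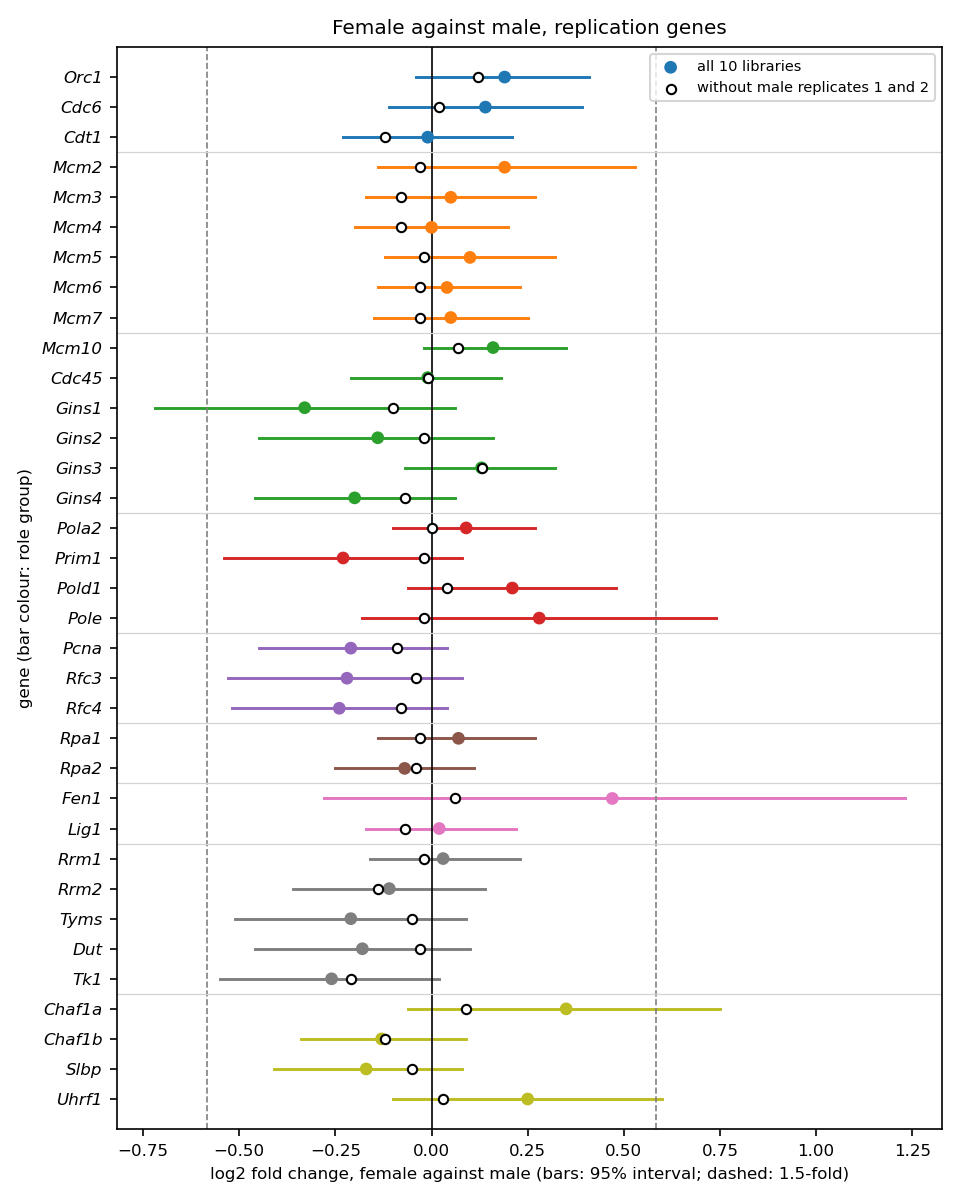
Log2 fold change of female against male for each gene (filled points, colour by role group) with its 95% interval, and the same without male replicates 1 and 2 (open points). All 35 intervals hold 0, 30 stay within the dashed lines at 1.5-fold, and without these 2 libraries the fold changes lie between -0.21 and 0.13.

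Among the origin licensing factors, Orc1 had the smallest p. It was at 33.8, 38.5, 31.9, 37.6 and 27.8 CPM in female replicates 1 to 5 and at 28.2, 27.7, 29.5, 30.5 and 33.4 CPM in male replicates 1 to 5. Females 2 and 4 were the highest and the sexes overlapped through female 5 and male 5 (log2 fold change 0.19, SE 0.11, edgeR adjusted p = 0.506). Cdt1 was at 317, 288, 283, 257 and 254 CPM in the females and at 234, 260, 291, 301 and 321 in the males. Male 1 was lowest, male 5 highest, and the means were 280 ± 25.5 and 281 ± 34.5 CPM (SD, n = 5 each). The log2 fold change of Cdc6 was 0.14 (SE 0.11). Without male replicates 1 and 2 the values were 0.12 for Orc1, -0.12 for Cdt1 and 0.02 for Cdc6.

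The 6 MCM genes all had fold changes at or above 0, from 0.00 for Mcm4 to 0.19 for Mcm2, and none was called. Mcm2 was at 751, 761, 695, 613 and 645 CPM in the females and at 494, 417, 644, 716 and 761 in the males. Male replicates 1 and 2 lay below every other library and the remaining 3 males within the range of females (log2 fold change 0.19, SE 0.15, edgeR adjusted p = 0.560). Mcm7 was at 898, 853, 767, 790 and 732 CPM in the females and at 692, 750, 764, 844 and 858 in the males, with male 1 lowest and a log2 fold change of 0.05 (SE 0.09). Mcm3, Mcm5 and Mcm6 had log2 fold changes of 0.05, 0.10 and 0.04. Without male replicates 1 and 2, the fold changes of all 6 turned negative, from -0.08 for Mcm3 and Mcm4 to -0.02 for Mcm5. The summed MCM level was 3284 and 3174 CPM in these libraries, 3684 to 4228 CPM in the other males and 3614 to 4178 CPM in females. Mcm7 shares exon positions with Ap4m1 and Cops6 on the opposite strand, and with Mir25 and Mir93 on its own. The sources used here do not say whether reads were counted by strand, and 12 of the 35 genes overlap an exon of another gene.

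The helicase activators did not move as a block. Mcm10, a factor needed to start the loaded helicase, was at 112, 122, 103, 110 and 108 CPM in the females and at 89.7, 90, 105, 108 and 102 in the males. Its log2 fold change was 0.16 (SE 0.09, edgeR adjusted p = 0.506), and it was 0.07 without male replicates 1 and 2, its lowest libraries. Gins4 was at 74.4, 67.9, 69.0, 65.4 and 58.9 CPM in the females and at 73.0, 102, 71.4, 69.4 and 70.5 in the males, so that male 2 alone lay outside the females' upper range. The log2 fold change of Gins4 was -0.20 (SE 0.12) and -0.08 without that library. Chosen after its values were seen, Gins1 had the most negative fold change of the 35 genes (-0.33, SE 0.18), again -0.11 without male 2, where it stood at 83.9 CPM against 36.5 to 50.4 CPM in the other 9 libraries. Gins2 (-0.14, and -0.02 without males 1 and 2), Cdc45 (-0.01) and Gins3 (0.13) completed the group. Gins3 had the closest males of the group, with a CV of 4.11%.

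Among the polymerase genes, Pold1 was at 277, 277, 299, 262 and 272 CPM in the females and at 217, 173, 254, 259 and 293 in the males. Males 1, 2, 3 and 4 lay below the lowest female and male 5 within the females (log2 fold change 0.21, SE 0.12, edgeR adjusted p = 0.506; 0.04 without male replicates 1 and 2). Pole was at 126 ± 12 CPM in the females and 104 ± 37.3 in the males (SD, n = 5 each), with 77.5 and 59.6 CPM in male replicates 1 and 2. Its log2 fold change of 0.28 became -0.02 without them. Prim1 went the other way (-0.23, and -0.02 without them), and Pola2 was at 0.09 (-0.00 without them).

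All 3 clamp and clamp loader genes had negative fold changes of like size, -0.21 for Pcna, -0.22 for Rfc3 and -0.24 for Rfc4, and none was called. Pcna was at 707, 660, 581, 618 and 568 CPM in the females and at 700, 914, 707, 636 and 657 in the males. Male 2 lay above all others, and the other males at 636 to 707 CPM overlapped the females. Rfc4 was at 75.4, 73.2, 63.7, 68.5 and 59.7 CPM in the females and at 79.2, 109, 74.0, 69.8 and 71.3 in the males (SE 0.13, edgeR adjusted p = 0.506). Without male 2 the fold changes were -0.11, -0.07 and -0.11. GENCODE names 2 pseudogenes of Pcna, Pcna-ps1 and Pcna-ps2, and 1 of Tyms, with which reads could be shared.

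Rpa2, of the single-strand binding pair, had the lowest fitted coefficient of variation of the 35 genes (0.112). It was at 167, 158, 142, 154 and 145 CPM in the females and at 149, 182, 163, 157 and 153 in the males, with male 2 highest (log2 fold change -0.07, SE 0.08, edgeR adjusted p = 0.667). Rpa1 had a log2 fold change of 0.07 (SE 0.09, and -0.03 without males 1 and 2), and its CV over males 3, 4 and 5 was 0.727%, although male 2 stood at 228 CPM.

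Fen1 had the widest spread of the 35 genes, with a CV of 49.9% in males. It was at 40.1, 36.7, 38.7, 31.3 and 37.5 CPM in the females and at 20.6, 6.23, 31.5, 35.2 and 38.8 in the males. Male replicates 1 and 2 were lowest and the other 3 males lay within the females. In counts, male 2 had 120 and male 1 had 492, against 701 to 959 in the other 8 libraries. The log2 fold change was 0.47 (SE 0.35, edgeR adjusted p = 0.532), 0.22 without male 2 and 0.06 without males 1 and 2. Fen1 overlaps exons of Tmem258 and Gm10143 on the opposite strand, so its counts are uncertain to that extent. Its partner Lig1 was at 402, 394, 342, 367 and 363 CPM in the females and at 322, 338, 383, 398 and 395 in the males, a log2 fold change of 0.02 (SE 0.09), with males 1 and 2 lowest and -0.07 without them.

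In nucleotide synthesis Tk1 had the smallest p of all 35 genes (unadjusted p = 0.0637 in edgeR). It was at 200, 174, 150, 151 and 145 CPM in the females and at 162, 254, 189, 190 and 190 in the males. Female 1 lay above all males but male 2, and females 3, 4 and 5 below all males (log2 fold change -0.26, SE 0.13, edgeR adjusted p = 0.506). Without male replicates 1 and 2 Tk1 was still at -0.21 (SE 0.10, edgeR adjusted p = 0.876). It was then the 1 gene of 35 with an unadjusted p under 0.05 (5.60% of all genes), and 0 passed the adjusted test (0.0799% of all genes). Tk1 overlaps Afmid on the opposite strand.

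Dut was at 361, 356, 351, 367 and 321 CPM in the females and at 366, 548, 397, 333 and 341 in the males, so that male 2 set its log2 fold change of -0.18 (-0.03 without it). Tyms had -0.21 (-0.07 without male 2), Rrm1 0.03 and Rrm2 -0.11. Rrm2, the subunit whose level limits ribonucleotide reductase in S phase, had the closest males of the 35 genes (CV 3.40%) and the widest females (CV 18.2%). It stood at 432 and 405 CPM in females 1 and 2 and at 306, 325 and 287 CPM in females 3, 4 and 5, with all males between them at 364 to 398 CPM.

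Of the chromatin genes, Chaf1a was at 145, 162, 149, 134 and 144 CPM in the females and at 94.1, 68.0, 115, 145 and 154 in the males. Males 1, 2 and 3 lay below every female and males 4 and 5 among them (log2 fold change 0.35, SE 0.19, edgeR adjusted p = 0.506; 0.09 without males 1 and 2). Its partner Chaf1b was at -0.13 (SE 0.10). Uhrf1 was at 403, 398, 334, 302 and 327 CPM in the females and at 234, 207, 320, 347 and 370 in the males, a log2 fold change of 0.25 (SE 0.16) that was 0.03 without males 1 and 2. Slbp was at -0.17 (SE 0.11), and at -0.05 without them.

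Male replicate 2 lay at an extreme for most of the replication genes. It held the highest value of the 10 libraries for 13 of the 35 genes and the lowest for 13 more, while over all genes tested it was highest in 29.8% and lowest in 33.3%. Its deviation from the mean of the 10 mice, on log2(CPM + 0.5), ran from -2.12 for Fen1 to 0.84 for Gins1. Genes high in it were Gins1, Rfc3, Prim1, Tyms, Gins2, Dut, Rfc4, Tk1, Gins4 and Pcna, each at least 0.45 above the mean. Genes low in it were Fen1, Chaf1a, Pole, Uhrf1, Mcm2 and Pold1, each at least 0.56 below. This list of genes was drawn up after their values were seen. Of the low genes, Pole (-0.51), Fen1 (-0.47), Uhrf1 (-0.44), Chaf1a (-0.43) and Mcm2 (-0.37) were also the lowest 5 of the 35 in male 1, where the highest was Slbp (0.16).

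**Figure D4:**
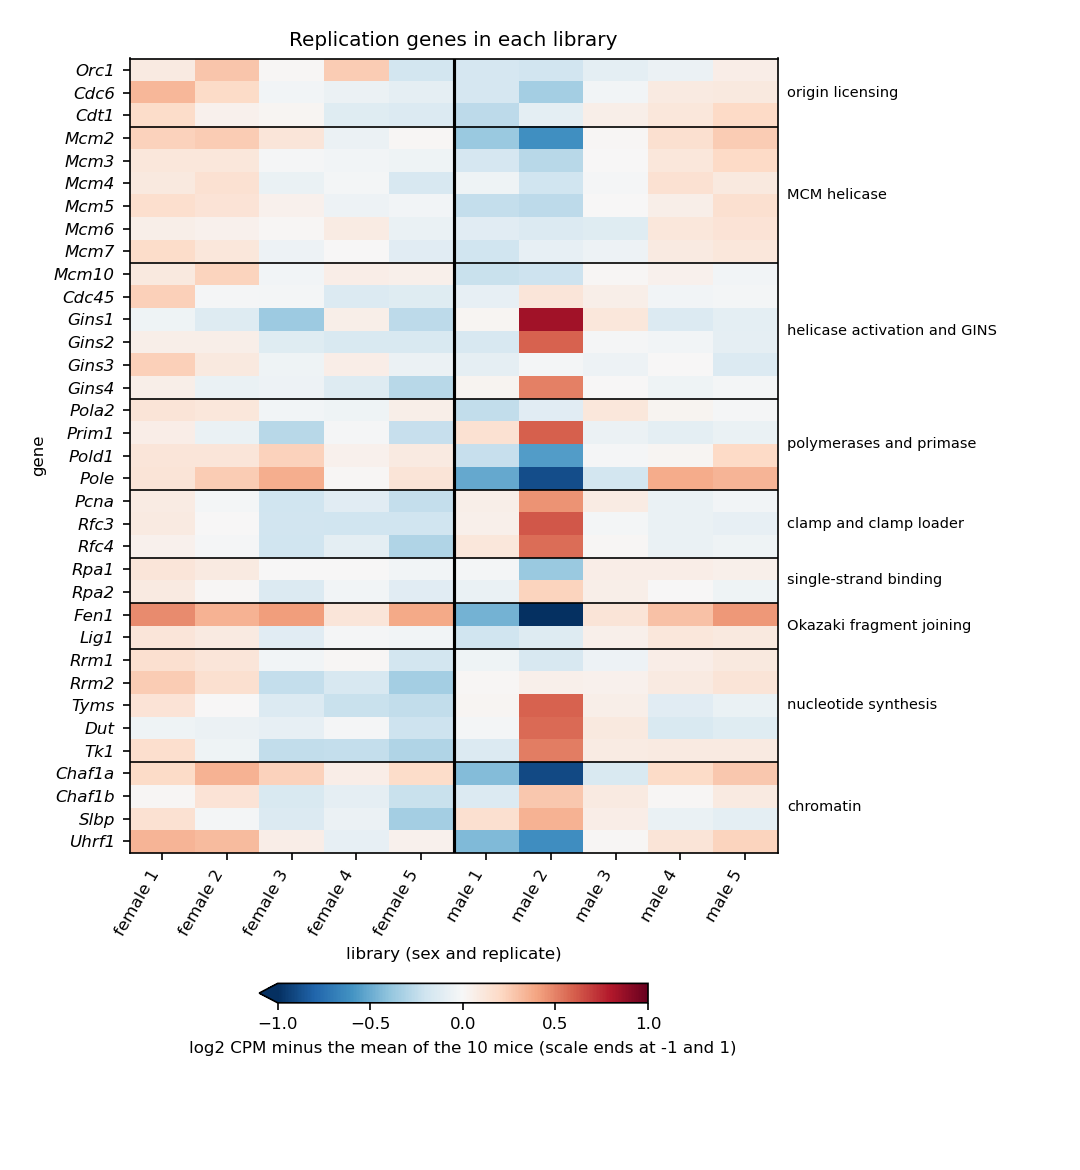
Log2 CPM of each gene in each library minus its mean over the 10 mice, red above and blue below, with genes by role group. Male replicate 2 holds the deepest red (Gins1, 0.84) and the deepest blue (Fen1, -2.12, past the end of the scale), and Fen1, Pole, Chaf1a and Uhrf1 are blue in male replicate 1 as well.

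Transcript length and base composition moved with these deviations. Across the 35 genes, which are not independent replicates, the deviation in male 2 fell with transcript length (rank correlation -0.587, and -0.563 over all genes tested). That in male 1 fell with GC content (-0.746 over the 35 genes, -0.230 over all genes tested). The correlation with length over the 35 genes was positive in the 5 females (0.249 to 0.553) and in males 4 and 5 (0.499 and 0.420). It was negative in male 3 as well (-0.552). Over all genes tested it was 0.0763 to 0.379 in the females, 0.415 and 0.333 in males 4 and 5 and -0.322 in male 3. The deviations of a gene cancel out over the 10 mice, so the signs in these libraries are not independent of those in male 2. Gins1 has a transcript of 1087 bases, Chaf1a of 7698 and Pole of 7163. Fen1, at 2373 bases and 53.8% GC, lay far below genes of its length. The median transcript of the 35 genes was 3014 bases at 49.3% GC, beside 2953 bases and 49.6% over all genes tested. The TMM factor of male 2 was 0.886, below the 0.964 to 1.05 of the remaining libraries. The summed erythroid and mature neutrophil markers given above were highest in males 1 and 2. The erythroid sum of every other male also lay above that of every female. The part of length, composition and these cells in the values of the replication genes was not tested.

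**Figure D5:**
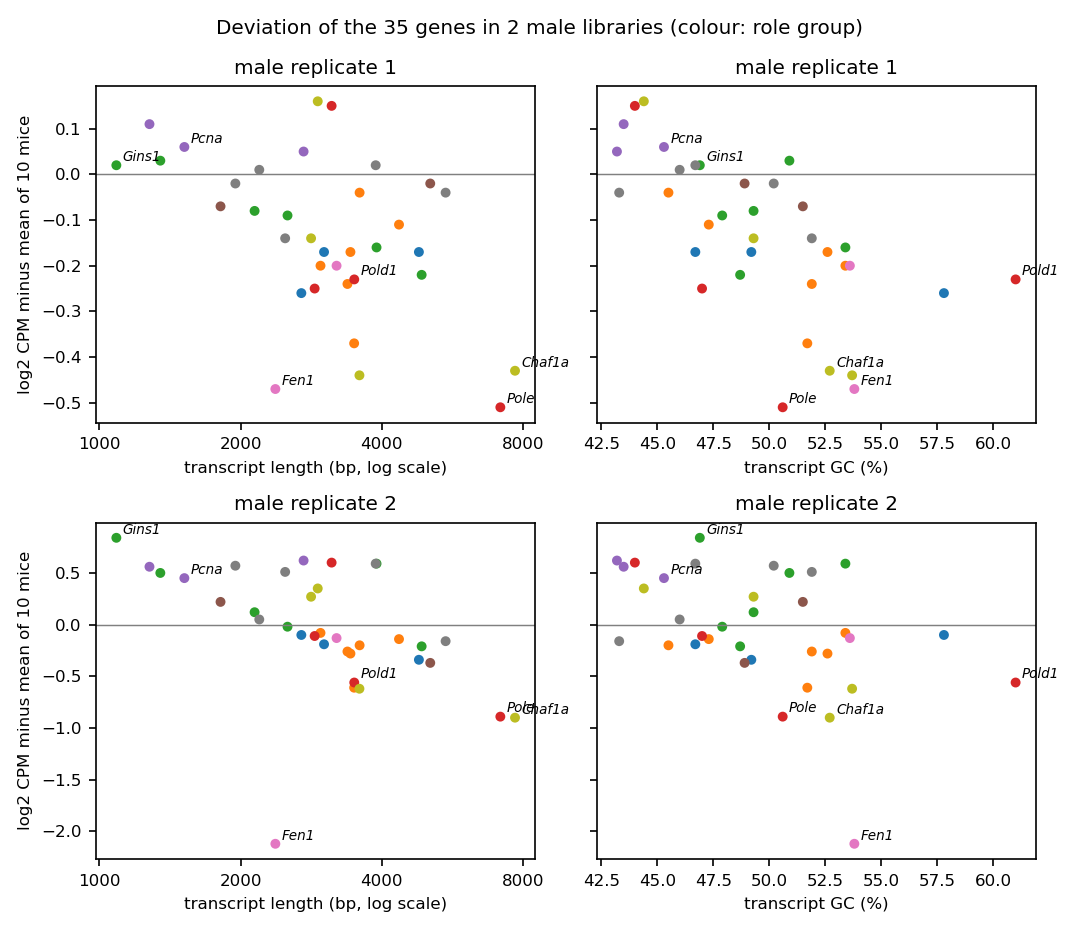
Deviation of each of the 35 genes from the mean of the 10 mice (log2 CPM) in male replicate 1 (top) and male replicate 2 (bottom), against transcript length in bases (log axis, left) and transcript GC content (right). In male replicate 2 short transcripts such as Gins1 lie above 0 and long ones such as Pole and Chaf1a below, with Fen1 apart at -2.12. In male replicate 1 values fall with GC content. Rank correlations are also negative for length in male replicate 1 (-0.428) and for GC content in male replicate 2 (-0.457). The vertical scales of the rows differ.

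Among females, libraries 1 and 5 lay at opposite ends. In female 1, 33 of the 35 genes were above the mean of the 10 mice (median deviation 0.12). It held the highest value for 12, and over all genes tested in 7.51%. In female 5, 27 were below the mean (median deviation -0.12). It held the lowest value for 10, and over all genes tested in 9.67%. Over all genes tested these 2 libraries had median deviations of 0.00. The summed level of the 35 genes was 10426, 10134, 9235, 9190 and 8784 CPM in female replicates 1 to 5 and 8586, 9111, 9446, 9851 and 10157 CPM in male replicates 1 to 5, so both sexes spanned a like range.

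The median CV of their CPM was 9.10% in females and 13.2% in males, beside 11.1% and 21.9% over all genes tested, which were also less abundant (median 18.9 CPM against 180). The log2 SD was larger in males for 30 of the 35 genes (85.7%, against 80.4% of all genes). With males 3, 4 and 5 alone it was larger than in females for 7 (20%, against 45.5% of all genes).

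The other genes of the pathway, from lists that share no gene with the 35, had no call either. Of 71 such genes 0 passed in edgeR (0.0545% of all genes tested) and 0 in DESeq2 (0.361%). An unadjusted p under 0.05 in edgeR was seen in 5 of the 71, against 9.17% of all genes tested. The median log2 fold change of the 71 was -0.01. Among initiation factors, Gmnn, the inhibitor of Cdt1, was at -0.31 (SE 0.15) and Mcm8, a helicase of DNA repair, at 0.14 (SE 0.08). Among fork genes, Tipin, of the fork protection complex, was at -0.40 (SE 0.16) and the nuclease Dna2 at 0.27 (SE 0.12). Of nucleotide and chromatin genes the histone chaperone Asf1a was at -0.51 (SE 0.20) and the deaminase Dctd at 0.18 (SE 0.09). All 6 had an edgeR adjusted p of 0.506. Gmnn, Tipin and Asf1a were highest in male 2, at 150, 188 and 96.7 CPM, and without males 1 and 2 they were at -0.09, -0.14 and -0.15. Dna2 was lowest in these males, at 64.3 and 52 CPM, and was at 0.13 without them, where Mcm8 was at 0.13 and Dctd at 0.14.

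E2F transcripts were given as the known regulators of this group. Of 18 E2F and S phase entry genes 11 had a positive and 7 a negative fold change (median 0.05). The lowest p on each side belonged to E2f2 at -0.37 (SE 0.18), with 90.3 ± 19.7 CPM in the females and 117 ± 27.5 in the males, and E2f6 at 0.17 (SE 0.08), with 76.4 ± 3.73 and 68.0 ± 5.33 CPM (SD, n = 5 each). E2f2 was at 140 CPM in male 1 and at 80.7 CPM in male 2, and without these males its log2 fold change was -0.42 and that of E2f6 0.10. Neither E2f2 nor E2f6 passed the edgeR test (adjusted p = 0.506). The summed level of 20 mitosis genes was 3490 ± 227 CPM in the females and 3464 ± 148 in the males (SD, n = 5 each). In edgeR 0 of the 20 were called, where 0.0545% of all genes tested were.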

How the data were processed

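Alignment and counting were the authors' own. Per the submitters' processing notes the tools were STAR, featureCounts and DESeq, and the builds named are GRCm38.p6 and mm10. No versions are given. The deposited table holds raw read counts per gene for 10 libraries. The deposited normalized table was not used. Symbols come from the file, and lengths, GC content and coordinates from GENCODE vM21 (GRCm38), which holds 25116 of the 25178 identifiers. The members and lists were chosen with earlier results of these data known.

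Low genes were removed with filterByExpr, and TMM factors were computed. With edgeR 4.0.16 (R 4.3.3) a quasi-likelihood model was fitted to all genes with sex as the only term, and p-values were adjusted by Benjamini-Hochberg over all 14674 genes. The SE is the fold change divided by the square root of F. Alternatives were DESeq2 1.42.0, RLE scaling, 2 other filters, each library left out, the replicate number as a block and, chosen after seeing the data, leaving out male replicates 1 and 2. The procedure was tested on simulated data with no planted change under 2-fold. The simulation held no deviant library and no effect of length or base composition, so it does not cover these. Named with values in each library are, per role group, the gene of smallest p and that of highest level per length. From each other pathway list the gene of smallest p in each direction is named. Other names were chosen after their values were seen. Replicate libraries within a sex differed beyond counting error (the lowest ratio of chi-square to its degrees of freedom was 9.05), and n counts mice.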

Additional observations from a re-analysis of the deposited data

Results flagged for a closer look

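In a gap test of each sex's 5 values (Dixon's, 72 groups of values), 8 genes had a single library far from the other 4, and it was male replicate 2 in all 8. Chance flags about 1 in 20 groups where these are independent, which genes of the same libraries are not. The test was not run on other genes. Over all genes tested, male replicate 2 held the highest value of the 10 libraries in 29.8% and the lowest in 33.3%. It stood high for Gins1 at 83.9 CPM (the other males at 42.6 to 50.4), Gins2 at 92.6 CPM (55.0 to 61.0), Gins4 at 102 CPM (69.4 to 73.0) and Pcna at 914 CPM (636 to 707). It also stood high for Rfc3 at 83.9 CPM (51.6 to 56.3), Rfc4 at 109 CPM (69.8 to 79.2) and Tyms at 164 CPM (101 to 114). It stood low for Rpa1 at 228 CPM (289 to 309). Fen1 at 6.23 CPM in the same library was not among them, since male replicate 1 was low as well.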

How the results depend on the processing

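No replication gene was called under any of the 16 alternatives, in 560 values. Over all genes the 8 calls became 53 with DESeq2 and 5 with the replicate number as a block, and lay between 6 and 10 with 1 library left out. Under the block 0 replication genes were called. Same-numbered females and males did not deviate together (correlations from -0.318 to 0.00259), and 0 of the 5 females correlated best with the male of her number. The labels name no pairing, and correlations of expression alone cannot decide whether same-numbered mice were linked. The fold changes changed sign in 31 of the 560 values, in 14 of the 35 genes, all in fits that left out libraries. Without male replicates 1 and 2 they were -0.03 for Mcm2, Mcm6, Mcm7 and Rpa1, -0.08 for Mcm3 and Mcm4, -0.02 for Mcm5, Pole and Rrm1, -0.07 for Lig1 and -0.00 for Pola2. With 1 library left out they ran from -0.08 to 0.02 for Cdc45, -0.07 to 0.04 for Cdt1, -0.20 to 0.02 for Gins2, -0.02 to 0.06 for Lig1, -0.01 to 0.11 for Mcm3, -0.04 to 0.04 for Mcm4, -0.00 to 0.09 for Rpa1 and -0.00 to 0.08 for Rrm1. The cause was not tested.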
